A study of Mus musculus with 24 samples.

Results

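Xdh encodes xanthine dehydrogenase, the enzyme that turns hypoxanthine into xanthine and xanthine into uric acid. It is described here with 9 other enzymes of purine breakdown and salvage, Pnp, Gda, Ada, Adk, Hprt, Aprt, Nt5e, Ampd2 and Ampd3, which makes 10 genes of the 45777 in the deposited table. The genes were taken by symbol, all 10 were found, and all 10 passed the filter on low counts. The set was selected on a measured value, the higher level of Xdh in MS_EC12, so the values of all 10 genes in MS_EC12 against MS, and those of Xdh in each contrast that holds MS_EC12, are a description and are given without a test.

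RNA-seq covered 24 libraries of prefrontal cortex, 6 for each of 4 groups, all from male wild-type mice in adulthood. MS_EC12 mice had maternal separation and the EC-12 supplement, MS mice had the separation alone, Control_EC12 mice had the supplement alone and Control mice had neither. Maternal separation keeps pups apart from the dam and serves as an early-life stress, and EC-12 is a preparation of heat-killed Enterococcus faecalis, a gut bacterium, given for 5 weeks. The study asked whether the supplement changes a social deficit that follows the separation. The labels give no strain, age in weeks or timing of the separation. Nor do they tie each library to an animal of its own, so a p-value here speaks of the spread among libraries, which may be partly technical.

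Purine nucleotides are costly to build, and cells recover most of the free bases and nucleosides that come from their turnover. Adk, Hprt and Aprt put adenosine, hypoxanthine or guanine, and adenine back into nucleotides, while Ampd2, Ampd3, Ada, Pnp and Gda strip amino groups and sugars and Xdh carries the remaining base to uric acid. In the brain adenosine is also a signal that damps neuronal activity, and Nt5e makes it outside the cell. In rodents Xdh protein is best known from liver, gut and the lining of small vessels, and it can be converted to an oxidase form that produces superoxide and hydrogen peroxide.

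Total counts per library ran from 26250197 to 39252382. The libraries also differed in how expression depended on the GC content of a gene. This was measured as the slope of a gene's deviation from its mean log2 CPM (read counts relative to library size, scaled by TMM) on the GC share of its longest transcript. The slope, in log2 units per 10 percentage points of GC, was above 0 in 4 MS_EC12, 1 MS, 2 Control_EC12 and 0 Control libraries and below 0 in the other 17. It averaged 0.228 ± 0.333 in MS_EC12, −0.104 ± 0.185 in MS, −0.00321 ± 0.238 in Control_EC12 and −0.121 ± 0.0251 in Control (SD, n = 6 each). Values are therefore given below for the 7 and the 17 libraries as well. The MS_EC12 libraries among the 17 are replicates 1 and 2, while all 6 Control replicates remain. The neuronal markers of the cortex were present in all groups, with Slc17a7 at a median of 1488, 1197, 1220 and 1223 CPM in MS_EC12, MS, Control_EC12 and Control.

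The 10 genes differ in base composition, and 3 stretches of 90 coding bases show the range. Each is the first window inside a single exon whose GC share is nearest to that of the whole coding sequence, read from GENCODE M21 on GRCm38 (the build named mm10 by UCSC), 5′ to 3′ on the coding strand, with G and C in capitals. Gda has the lowest GC share of these 3, with 47.1% over its coding sequence and 42.7% over its longest transcript. Its window is in exon 3 at chr19:21428490-21428579 on the minus strand. Xdh has 52.7% and 49.7%, and its window is in exon 4 at chr17:73939764-73939853 on the minus strand. Aprt has the highest shares of all 10 genes, 59.6% and 58.9%, and its window is in exon 2 at chr8:122576532-122576621 on the minus strand.
Gda: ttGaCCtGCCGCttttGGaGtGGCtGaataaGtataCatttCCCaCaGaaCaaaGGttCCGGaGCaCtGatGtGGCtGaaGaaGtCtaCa
Xdh: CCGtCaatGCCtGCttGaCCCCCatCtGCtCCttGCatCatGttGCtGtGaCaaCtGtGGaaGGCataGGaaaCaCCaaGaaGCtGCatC
Aprt: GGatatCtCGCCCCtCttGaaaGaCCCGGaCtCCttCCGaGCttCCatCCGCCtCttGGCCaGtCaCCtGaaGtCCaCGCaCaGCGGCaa

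Levels per length differed widely between the genes. In deposited TPM (a level per transcript length, on which each library has the same total) Hprt averaged 222 ± 17.4 over the 24 libraries (SD) and made up 40.9% of the TPM summed over the 10 genes. Gda followed at 131 TPM, then Adk at 64.5, Ampd2 at 47.7 and Aprt at 46.9, and the last pair differed by less than its spread. Ampd3 at 12.4 and Pnp at 10.96 TPM were likewise close to each other, with Nt5e at 5.47. Xdh, at 1.79 ± 0.815 TPM, held 0.329% of the sum and only Ada was lower, at 0.663 TPM. The salvage enzymes and Gda therefore stood far above the last enzyme of the breakdown route in this tissue, on the TPM scale.

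**Figure D1:**
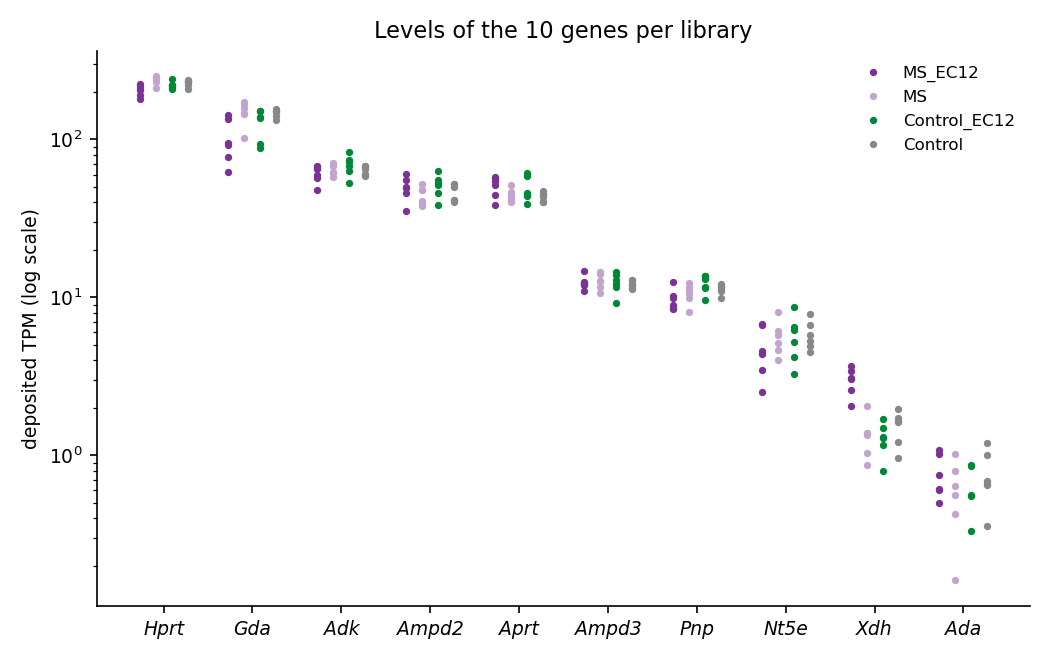
Deposited TPM of the 10 genes on a log axis, ordered by mean level, with 1 point per library and a column per group (MS_EC12, MS, Control_EC12 and Control from left to right). Hprt is highest at a mean of 222 TPM, and Xdh at 1.79 TPM lies above Ada alone. The Control_EC12 library in which Ada is at 0 cannot be drawn on a log axis.

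Xdh itself (Gene ID 22436) spans chromosome 17 from 73883895 to 73950397 on GRCm38. Its level ran from 5.56 to 7.72 CPM in MS_EC12, with a median of 6.61 CPM. In MS it ran from 2.25 to 4.13 CPM with a median of 3.59. The range was 2.14 to 3.82 CPM in Control_EC12, with a median of 3.09, and 2.40 to 4.47 CPM in Control, with a median of 3.34. All 6 MS_EC12 libraries were above all 18 others, and the other 3 groups overlapped one another.

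The group means of Xdh were 6.50 ± 0.802 CPM in MS_EC12, 3.34 ± 0.696 in MS, 3.06 ± 0.546 in Control_EC12 and 3.41 ± 0.707 in Control (SD, n = 6 each). In order, MS_EC12 came first, and Control, MS and Control_EC12 after it differed by less than their spread. The log2 fold change of MS_EC12 was 0.96 ± 0.153 against MS (SE), a fold of 1.95, 1.09 ± 0.154 against Control_EC12, a fold of 2.12, and 0.93 ± 0.153 against Control, a fold of 1.91. The interaction, the supplement's log2 effect in separated mice minus that in normally reared mice, stood at 1.11 ± 0.219 for Xdh. The 3 contrasts share the MS_EC12 libraries and are not independent of one another. The reads behind these values were few, from 177 to 261 per library in MS_EC12, 66 to 139 in MS, 66 to 108 in Control_EC12 and 85 to 139 in Control. The lowest MS_EC12 count of 177 reads has an exact 95% Poisson interval of 152 to 205, which covers counting error only, as do all such intervals here.

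**Figure D2:**
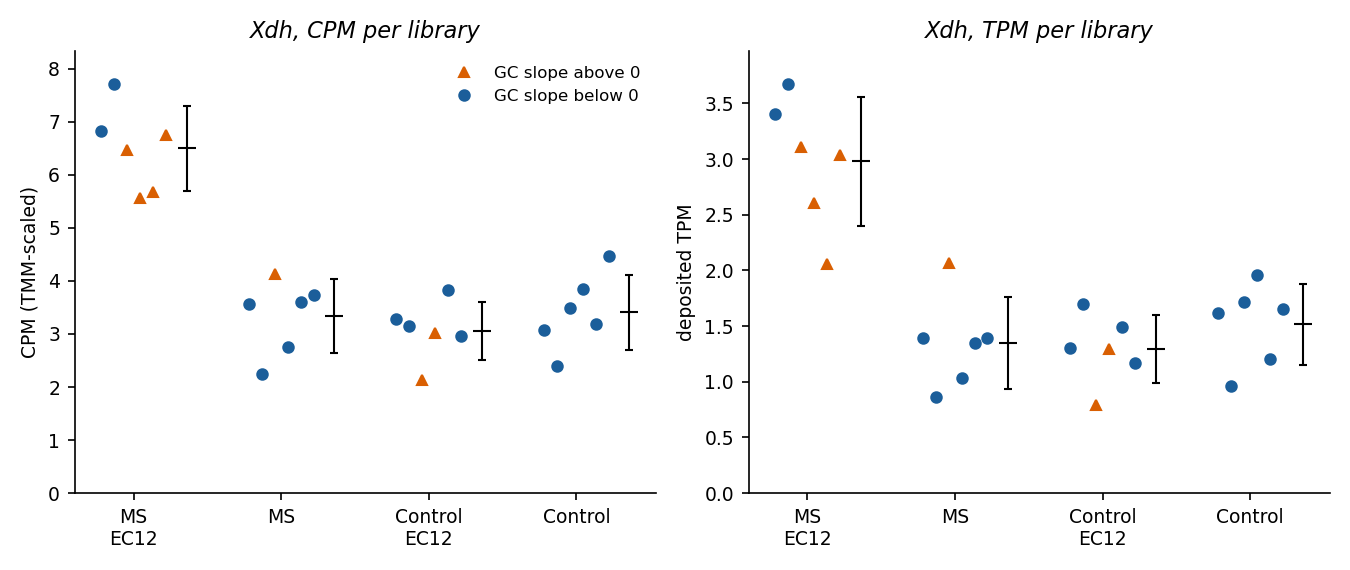
Xdh per library in CPM (left) and in deposited TPM (right), by group. Orange triangles are libraries with a GC slope above 0, blue circles those below 0, and the black marks give the mean and SD of 6 libraries. In CPM the MS_EC12 libraries, from 5.56 to 7.72, lie above all others, while in TPM the lowest of them, at 2.06, meets the highest MS library.

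The deposited TPM values gave the same order of MS_EC12 and the rest with a little overlap. Xdh ran from 2.06 to 3.68 TPM in MS_EC12, 0.867 to 2.06 in MS, 0.791 to 1.70 in Control_EC12 and 0.963 to 1.956 in Control. The lowest MS_EC12 library, replicate 5, was at 2.057 TPM and the highest MS library, replicate 3, at 2.063 TPM. TPM per CPM of Xdh varied from 0.362 in MS_EC12 replicate 5 to 0.538 in Control_EC12 replicate 2, so the authors' TPM values are not a fixed multiple of the counts for this gene.

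Xdh was also read within each set of libraries, as a description. Within the 17 libraries of slope below 0 it stood at 6.83 and 7.72 CPM in the 2 MS_EC12 libraries, at 2.25 to 3.73 CPM in 5 MS, at 2.96 to 3.82 in 4 Control_EC12 and at 2.40 to 4.47 in 6 Control libraries. Within the 7 libraries of slope above 0 it stood at 5.56 to 6.75 CPM in 4 MS_EC12 libraries, at 4.13 in 1 MS library and at 2.14 and 3.03 in 2 Control_EC12 libraries. In both sets every MS_EC12 library was above every other library, which follows from the order over all libraries and adds nothing to it. In the 17 libraries the log2 fold change of MS_EC12 was 1.19 against MS, 1.14 against Control_EC12 and 1.09 against Control.

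Few genes had this pattern. Of 18380 genes tested, 5 had every MS_EC12 library above all 18 others in CPM, which is 0.0272%, and 1 had every one below, which is 0.00544%. Beside Xdh the 5 were Pglyrp1, a peptidoglycan recognition protein, Imp4, a protein of ribosomal RNA processing, Aen, a nuclease induced by p53, and Smim3, a small membrane protein. The gene below was Rtkn2. Pglyrp1 ran from 5.27 to 8.59 CPM in MS_EC12, against at most 4.87 in MS, 4.49 in Control_EC12 and 3.65 in Control. Xdh was chosen for this pattern, so its place among the 5 is no finding.

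Without the contrast that chose it, Xdh showed no called difference. Its log2 fold change was −0.03 ± 0.156 in MS against Control (edgeR quasi-likelihood adjusted p = 1, 95% interval −0.33 to 0.28) and −0.15 ± 0.157 in Control_EC12 against Control (adjusted p = 0.756, interval −0.46 to 0.15). Called here means an adjusted p under 0.05 after Benjamini-Hochberg adjustment over all 18380 genes. The intervals leave room for changes of up to about those sizes in either direction.

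Likeness to Xdh was ranked among the tested genes, leaving out symbols of predicted models (Gm, LOC or Rik). The genes most like Xdh over the 24 libraries, by Pearson correlation of log2 CPM, were Smim3 (r = 0.82), Ly6a (0.81), Ly6c1 (0.80), Prr5 (0.79) and Map3k6 (0.77). This likeness includes the step between MS_EC12 and the rest. Ly6a and Ly6c1 are surface proteins that in mouse brain are known from the vessel lining. Ly6a averaged 20.6 ± 2.23 CPM in MS_EC12, 13.1 ± 1.93 in MS, 13.0 ± 3.05 in Control_EC12 and 12.3 ± 2.71 in Control (SD, n = 6 each). Ly6c1 averaged 32.3 ± 3.82, 23.3 ± 2.19, 19.7 ± 4.50 and 21.2 ± 4.72 CPM in the same order of groups. After the group means were subtracted, the gene most like Xdh among those ranked was another member, Ada (r = 0.69), followed by Pabpc1 (0.68), Galnt15 (0.67), Rtp4 (0.64) and Ncaph (0.63). Without Control_EC12 replicate 3, where Ada had 0 reads, the value for Ada was 0.61 over 23 libraries. These values share library depth and composition and were given no test.

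Markers of other cell types differed between MS_EC12 and Control with all libraries. Of 92 markers in 11 lists 20 were called (21.7%, against 14.1% of all genes), 15 higher and 5 lower. In the 17 libraries of GC slope below 0, 3 were, the astrocyte genes Aqp4, Gja1 and S100b (3.26%, against 1.01% of all genes). Of 10 endothelial markers in MS_EC12 against Control, Ly6c1 was higher by 0.60 on the log2 scale (edgeR adjusted p = 0.0223) and Slco1a4 was lower, at −0.69 (adjusted p = 0.0427). The summed endothelial markers ran from 159 to 207 CPM in MS_EC12, 149 to 194 in MS, 168 to 224 in Control_EC12 and 160 to 245 in Control, so that list did not part the groups. Cldn5, a defining junction protein of brain endothelium, had medians of 26.4, 19.8, 26.7 and 22.3 CPM in MS_EC12, MS, Control_EC12 and Control. Of 5 blood markers 4 haemoglobin genes were higher in MS_EC12 than in Control, by 0.64 to 0.72 on the log2 scale, and their sum with Alas2 ran from 226 to 590 CPM in MS_EC12, against 182 to 291 in MS, 224 to 379 in Control_EC12 and 200 to 289 in Control. Of 9 microglial markers 3 were higher than in Control, C1qa, C1qb and Trem2, with sums of 383 to 501 CPM in MS_EC12 and 351 to 409 in Control. No endothelial, blood or microglial marker was called in the 17 libraries. The median log2 fold change there was −0.25 for the endothelial list, 0.73 for blood and 0.07 for microglia, and with all libraries 0.10, 0.65 and 0.28. The other calls with all libraries included Aldh1l1 and S100b higher and Gja1 and Aqp4 lower among 8 astrocyte markers. Among the oligodendrocyte markers Olig1 and Olig2 were higher, and another marker of that list, not reported here by name, was lower. Ttr and Foxj1 of choroid plexus and ependyma and Vtn of mural cells were higher, and the neuronal Syt1 was lower. The part of these cell types in the Xdh values was not tested, and in bulk tissue more cells of a type and more RNA per cell cannot be told apart.

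The bases that feed Xdh come from Gda, which deaminates guanine to xanthine, and from Pnp, which releases hypoxanthine and guanine from their nucleosides. Gda ran from 159 to 322 CPM in MS_EC12 with a median of 226 CPM. It ran from 233 to 389 CPM in MS with a median of 337, from 200 to 336 in Control_EC12 with a median of 301, and from 307 to 339 in Control with a median of 333. The MS_EC12 libraries split into 4 at or below 229 CPM and 2 inside the Control range, so the groups overlapped.

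Gda averaged 240 ± 67.1 CPM in MS_EC12 and 327 ± 14.1 CPM in Control (SD, n = 6 each), and the log2 fold change of −0.45 ± 0.150 was called lower (edgeR adjusted p = 0.0492). It was the only call among the 9 genes other than Xdh in this comparison, where 14.1% of all 18380 genes were called, 7.31% higher and 6.8% lower. So 1 call in 9 is near the background of the comparison. The call was lost in the 17 libraries of GC slope below 0, where the value was −0.03 (adjusted p = 0.902) and 1.01% of genes were called. Of 24 fits that each left out 1 library the call stayed in 5, those without MS replicate 3, Control_EC12 replicate 3 or 4, or MS_EC12 replicate 1 or 2, and the value was weakest, −0.34 (adjusted p = 0.145), without MS_EC12 replicate 6. The log2 fold changes of Gda against the other groups were −0.47 ± 0.150 in MS_EC12 against MS, with no test, and −0.26 ± 0.150 in MS_EC12 against Control_EC12 (adjusted p = 0.339).

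Gda followed the GC slope of the library in the 3 groups that held libraries of either sign. All 7 libraries of slope above 0, at 159 to 255 CPM, were below all 17 others, at 294 to 389 CPM, a property of 10.6% of genes. The 4 MS_EC12 libraries among the 7 stood at 159 to 229 CPM, the MS library at 233 CPM and the 2 Control_EC12 libraries at 200 and 255 CPM. The 2 MS_EC12 libraries of slope below 0 stood at 319 and 322 CPM, against 307 to 339 CPM in the 6 Control libraries. The slope was computed over all genes with a GC value, Gda among them.

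Pnp (Gene ID 18950, chromosome 14 from 50944303 to 50953412) averaged 12.9 ± 1.56 CPM in MS_EC12, 12.9 ± 1.64 in MS, 15.3 ± 1.97 in Control_EC12 and 13.7 ± 0.924 in Control (SD, n = 6 each). No comparison called it. A near copy, Pnp2, lies in the same gene family at 3.92 TPM on average, and reads of the pair could have been split between them.

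**Figure D3:**
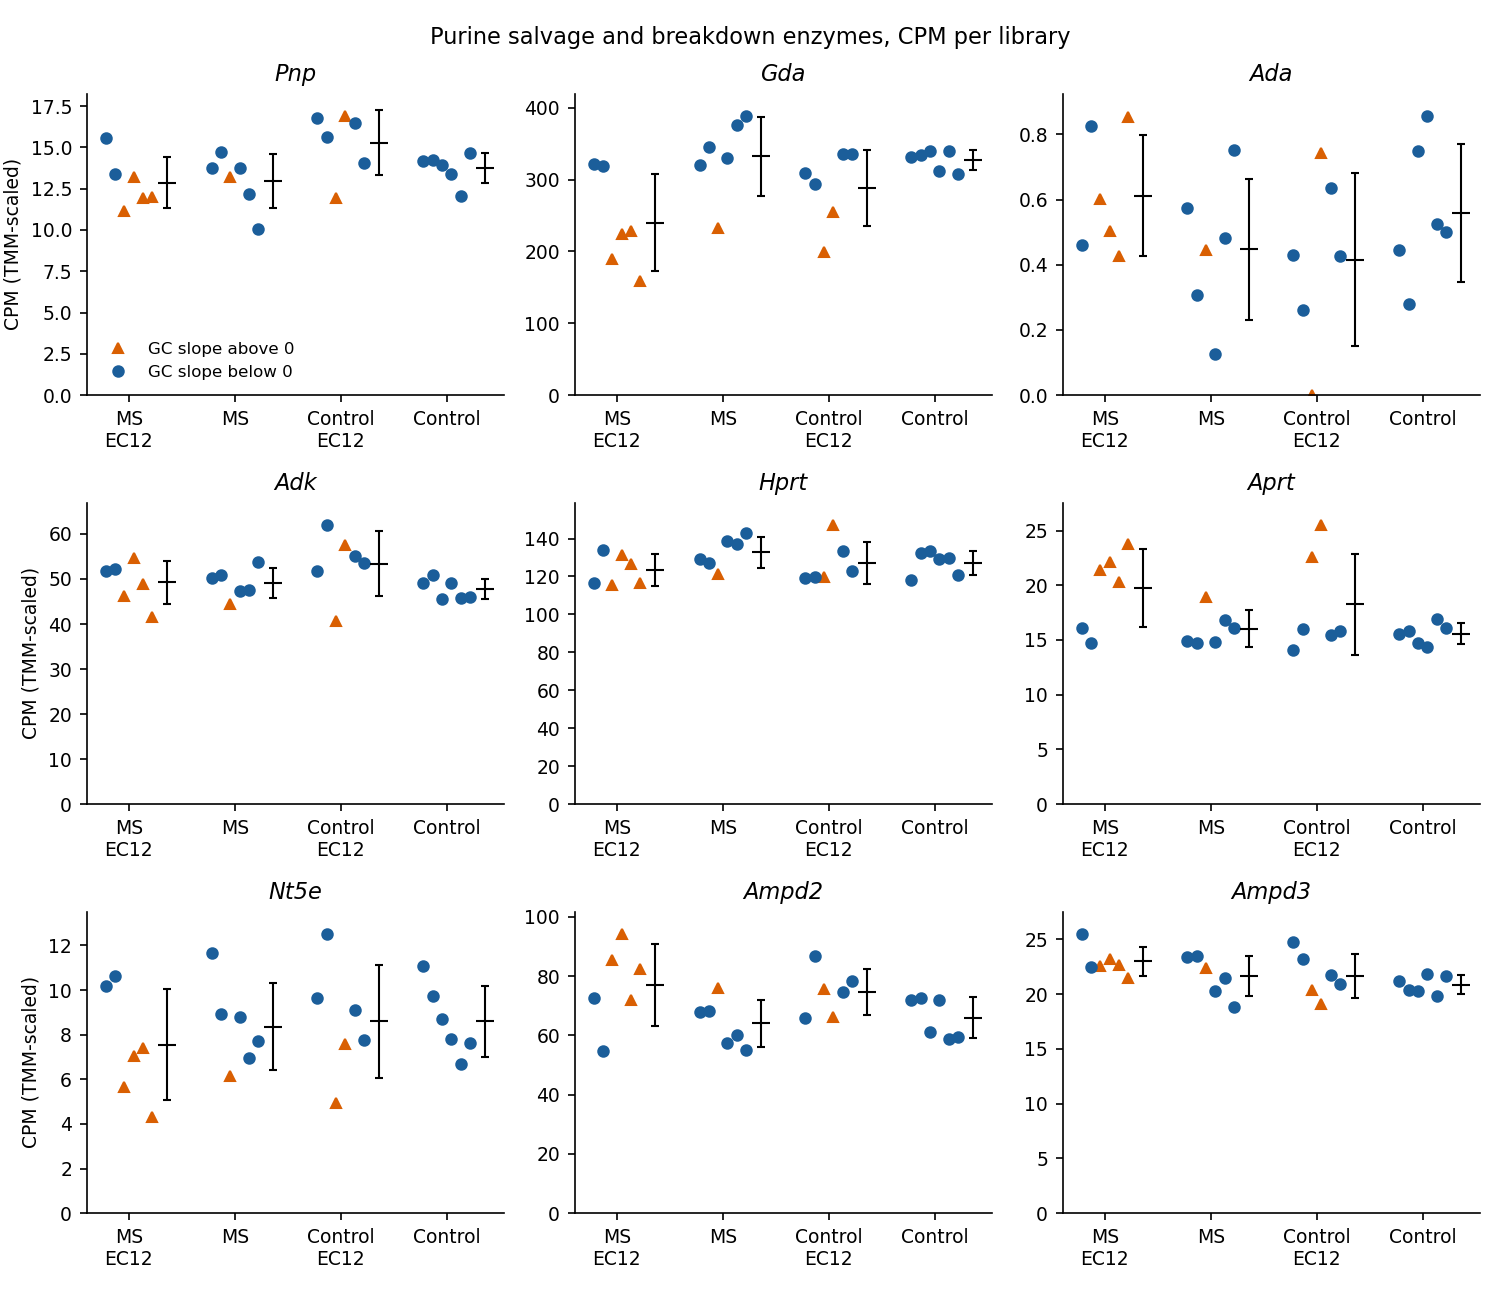
CPM per library of the 9 genes other than Xdh, by group. Orange triangles are libraries with a GC slope above 0, blue circles those below 0, and the black marks give the mean and SD of 6 libraries. Gda is lower and Aprt higher in all 7 libraries marked by triangles, whatever their group, while Hprt stays between 115 and 147 CPM throughout.

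Among the enzymes of salvage, Hprt joins hypoxanthine or guanine to ribose phosphate, Aprt does so for adenine, and Adk phosphorylates adenosine. Hprt averaged 123 ± 8.37 CPM in MS_EC12, 133 ± 8.26 in MS, 127 ± 11.3 in Control_EC12 and 127 ± 6.30 in Control (SD, n = 6 each). Its log2 fold change in MS_EC12 against Control was −0.04 ± 0.0635 (edgeR adjusted p = 0.642, 95% interval −0.17 to 0.08). Adk averaged 49.2 ± 4.78 CPM in MS_EC12, 49.1 ± 3.28 in MS, 53.4 ± 7.17 in Control_EC12 and 47.7 ± 2.24 in Control, with a value of 0.05 ± 0.0822 in MS_EC12 against Control (adjusted p = 0.706). Both values moved with the handling of GC content in that comparison. With the GC trend removed within each library, Adk stood at 0.60 ± 0.137 (edgeR adjusted p = 0.0172) and Hprt at 0.45 ± 0.148 (adjusted p = 0.0476), both called higher in a fit that called 12.1% of all genes. In the 17 libraries Adk stood at 0.12 (adjusted p = 0.449) and Hprt at −0.02 (adjusted p = 0.934), and on log2(TPM + 1) Hprt was called lower at −0.16 (limma adjusted p = 0.047).

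Aprt averaged 19.7 ± 3.57 CPM in MS_EC12, 16.0 ± 1.65 in MS, 18.2 ± 4.64 in Control_EC12 and 15.6 ± 0.939 in Control (SD, n = 6 each). Its log2 fold change was 0.34 ± 0.132 in MS_EC12 against Control (edgeR adjusted p = 0.0688) and did not pass. It passed without MS_EC12 replicate 1, MS_EC12 replicate 2 or Control_EC12 replicate 4, with an adjusted p of 0.0207 and a value of 0.41 without MS_EC12 replicate 2. The 7 libraries of GC slope above 0 ran from 18.9 to 25.5 CPM and the other 17 from 14.1 to 16.96 CPM, with no overlap, a property of 7.52% of genes. In the 17 libraries the value was −0.02 (adjusted p = 0.957), with 16.1 and 14.7 CPM in the 2 MS_EC12 libraries. Aprt, the gene of highest GC share, and Gda, of a low one, thus stood on opposite sides in the same 7 libraries. Adk and Hprt, whose longest transcripts have the lowest GC shares of the 10 at 37.5% and 40.1%, did not part the 7 libraries from the 17.

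**Figure D4:**
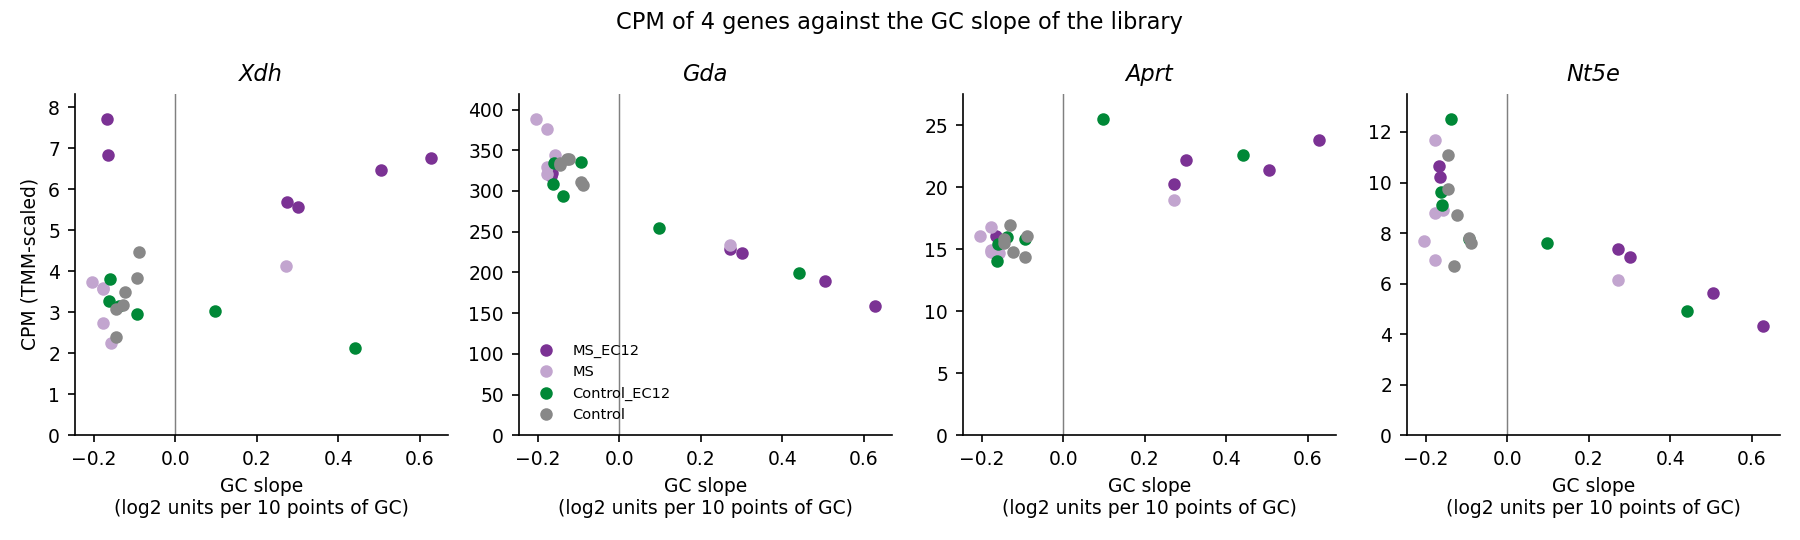
CPM of Xdh, Gda, Aprt and Nt5e (vertical axes) against the GC slope of the library (horizontal axes, log2 units per 10 percentage points of GC), with 1 point per library coloured by group. Gda falls and Aprt is higher to the right of 0, with all 7 libraries there apart from the other 17. Xdh of the MS_EC12 libraries lies above all other libraries, and so also on each side of 0.

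The enzymes that act on AMP and adenosine showed no called difference in any comparison tested. Ampd2 and Ampd3 deaminate AMP to IMP inside the cell, Nt5e (CD73) makes adenosine from AMP at the cell surface, and Ada deaminates adenosine to inosine. Ampd2 averaged 77.0 ± 13.7 CPM in MS_EC12, 64.2 ± 7.97 in MS, 74.6 ± 7.89 in Control_EC12 and 66.0 ± 6.82 in Control (SD, n = 6 each). Its log2 fold change in MS_EC12 against Control was 0.22 ± 0.108 (edgeR adjusted p = 0.131), and −0.05 in the 17 libraries. Without MS_EC12 replicate 2, the MS_EC12 library of lowest Ampd2 at 54.8 CPM, the value was 0.30 and passed (adjusted p = 0.0221).

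Ampd3 averaged 23.0 ± 1.35 CPM in MS_EC12, 21.6 ± 1.84 in MS, 21.7 ± 2.03 in Control_EC12 and 20.9 ± 0.831 in Control (SD, n = 6 each), with a log2 fold change of 0.14 ± 0.0701 in MS_EC12 against Control (adjusted p = 0.145). The spans of Ampd2 and Ampd3 overlap the protein-coding genes Gm12500 and Rnf141, and the strand setting of the counting is not given in the sources used here, so some of their reads may belong to the neighbour.

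Nt5e ran from 4.32 to 10.6 CPM in MS_EC12, 6.15 to 11.7 in MS, 4.93 to 12.5 in Control_EC12 and 6.70 to 11.1 in Control. The 4 groups overlapped. Its log2 fold change in MS_EC12 against Control was −0.19 ± 0.210 (edgeR adjusted p = 0.506), and 0.27 in the 17 libraries (adjusted p = 0.565). Replicates 1 and 2, the only MS_EC12 libraries among the 17, had the highest Nt5e of each group. GC slope and replicate number therefore cannot be told apart in the value of 0.27. The 7 libraries of GC slope above 0 ran from 4.32 to 7.60 CPM and the other 17 from 6.70 to 12.5 CPM.

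Ada was close to the limit of detection, with 14 to 33 reads per library in MS_EC12, 4 to 22 in MS, 0 to 25 in Control_EC12 and 10 to 31 in Control. It averaged 0.612 ± 0.186 CPM in MS_EC12, 0.449 ± 0.216 in MS, 0.416 ± 0.266 in Control_EC12 and 0.559 ± 0.211 in Control (SD, n = 6 each). The library with 0 reads, Control_EC12 replicate 3, allows a level of up to 0.1 CPM (3 counts of its total). The interaction stood at 0.87 ± 0.616 for Ada (edgeR adjusted p = 0.83, 95% interval −0.34 to 2.07), and at 0.60 without that library.

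**Figure D5:**
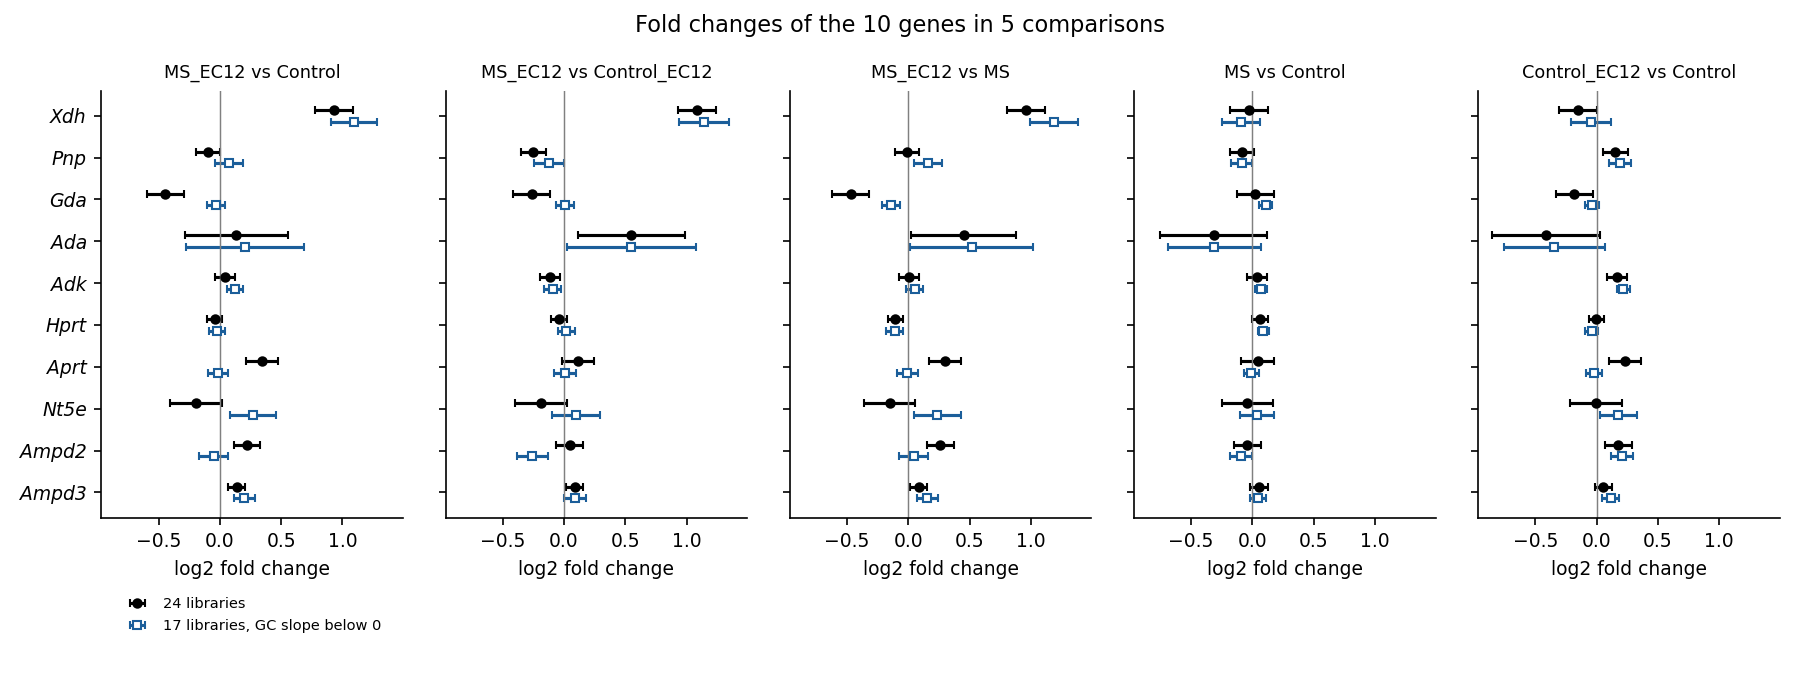
Log2 fold changes of the 10 genes in 5 comparisons, with bars for 1 SE. Black circles use all 24 libraries and open squares the 17 libraries of GC slope below 0. Xdh stands at 0.93 to 1.09 with all libraries in the 3 comparisons that hold MS_EC12. Gda and Aprt of MS_EC12 against Control, −0.45 and 0.34, are at −0.03 and −0.02 in the 17 libraries.

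Set side by side, the 10 genes gave few calls. None was called in MS against Control (edgeR), where 0.0326% of all genes were, nor in Control_EC12 against Control, where 0.0218% were. The 9 genes other than Xdh ran from −0.32 to 0.06 in the first of these and from −0.41 to 0.23 in the other. Unadjusted, no gene of the 10 had p under 0.05 in either comparison, and the smallest was 0.0592 for Adk in Control_EC12 against Control. In MS_EC12 against Control_EC12, where 0.261% of all genes were called, none of the 9 passed and Pnp had an unadjusted p of 0.0192 (adjusted p = 0.274). The interaction called none of the 9, with unadjusted p of 0.1725 or more, and 0.0109% of all genes. In MS_EC12 against MS, where 0.163% of genes were called, the 9 ran from −0.47 to 0.45, and nothing is read from that comparison. The median of all 10 genes was 0.09 in MS_EC12 against Control, with 6 above 0, and that of all genes tested was 0.01, with 50.8% above 0.

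The wider purine network was read from 7 lists of 73 tested genes, chosen with earlier results of these data known. In MS_EC12 against Control 10 of the 73 were called (13.7%, against 14.1% of all genes), 8 higher and 2 lower, and in the other 5 comparisons none was. Of 9 genes of purine synthesis from small precursors, Prps2, which makes the activated ribose, and Ppat, which takes the committed step, were lower at −0.40 ± 0.123 and −0.32 ± 0.103 (edgeR adjusted p = 0.0408 and 0.0444). The median of that list was −0.12, and 0.009 in the 17 libraries. Of 13 genes that convert IMP onward or phosphorylate nucleotides, Ak1, an adenylate kinase, and Adssl1, an adenylosuccinate synthase, were higher at 0.29 and 0.34. A further list held 17 tested genes of nucleotides and nucleosides, mostly of breakdown but with the kinases Dck and Dguok. Of these the nucleotide-cleaning enzymes Itpa and Nudt18 and the mitochondrial nucleotidase Nt5m were higher at 0.36, 0.31 and 0.32. Slc29a1, the equilibrative nucleoside transporter, was the only one called of 9 transporters, at 0.37. None of these 8 passed in the 17 libraries, where their values lay between −0.14 and 0.16.

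Xdh needs a molybdenum cofactor, which is built by Mocs1, Mocs2, Mocs3 and Gphn and given its terminal sulphur by Mocos. Of 10 tested genes of this cofactor and its enzymes, 2 were higher in MS_EC12 than in Control, Suox, the sulphite oxidase, at 13.6 ± 1.94 against 10.5 ± 0.797 CPM (SD, n = 6 each; edgeR adjusted p = 0.0347) and Marc2, an amidoxime reductase, at 47.8 ± 3.38 against 38.7 ± 0.752 CPM (adjusted p = 0.025). Their log2 fold changes were 0.37 ± 0.103 and 0.30 ± 0.0720, and 0.15 and 0.19 in the 17 libraries, where neither passed. The median of the list was −0.02, and 0.11 in the 17 libraries. Neither the cofactor builders nor Mocos was called. Mocos averaged 1.499 TPM, close to the level of Xdh.

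Genes listed for nucleotide breakdown and adenosine receptors outside the cell gave no call with all libraries. The list for extracellular nucleotide breakdown held 11 genes, not all of which act mainly on nucleotides outside the cell. Its median was −0.19 in MS_EC12 against Control, with 2 of 11 above 0, and −0.24 in the 17 libraries, with 3 of 11. The 4 adenosine receptors had a median of 0.22, and of −0.08 in the 17 libraries, where 1 of 4 was above 0. Adora1 stood at 95.8 TPM and Adora2a, which is concentrated in striatum, at 73.8 TPM on average. Within the 17 libraries 3 of the 73 genes were called in MS_EC12 against Control (4.11%, against 1.01% of all genes), and these 3 are named with their values known. Alpl, tissue-nonspecific alkaline phosphatase, stood at −1.10 ± 0.205 there (edgeR adjusted p = 0.0188) and at −0.20 ± 0.202 in all libraries (adjusted p = 0.479). Entpd2, an ecto-nucleotidase, stood at −1.20 ± 0.230 there (adjusted p = 0.0218) and at 0.01 ± 0.263 in all (adjusted p = 0.989). Ak3, a mitochondrial adenylate kinase, stood at 0.35 ± 0.0682 (adjusted p = 0.0223) and at 0.21 ± 0.0730 (adjusted p = 0.0538). Only 2 MS_EC12 libraries enter those values.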

How the data were processed

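Libraries were made from prefrontal cortex with ISOGEN II RNA and a stranded mRNA kit, per the labels' protocols. The build mm10, HISAT2 2.1.0, StringTie 2.1.3b, Trimmomatic 0.38, FastQC 0.11.7 and DESeq2 are listed in the submitters' processing notes, with no roles. How reads were counted, and with which strand setting, is not given in the sources used here. Deposited were read counts of each gene as whole numbers, which the authors did not normalize, and TPM values that the authors computed per gene, per the file headers. Counts gave every main result and TPM the levels between genes and an alternative (limma on log2 of TPM plus 1 or 0.1).

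Counts were filtered with filterByExpr (minimum count 10, minimum total 15), which left 18380 genes, scaled by TMM and tested with the 2-sided quasi-likelihood test of edgeR 4.0.16 (R 4.3.3), with all 24 libraries in 1 fit and Benjamini-Hochberg adjustment over all genes. SE was taken from the log2 fold change and the F statistic, and 95% intervals are 1.96 SE. Likeness to Xdh used log2 CPM with a prior count of 2. GC shares came from GENCODE M21 and covered 82.39% of tested genes. Total counts of 26250197 to 39252382 leave genes of few reads imprecise. No libraries of the same group were duplicates (smallest chi-square per gene 5.13), and libraries of different groups were not compared in this way. Alternatives were DESeq2 1.42.0, other size factors, no filter, the 2 groups alone, a replicate block, GC corrections, limma 3.58.1 and leaving out libraries. The fit was tested on simulated counts.

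Members and lists were chosen with earlier results of these data known. All 10 members are named, and from each list up to 4 genes per comparison, called ones first and then by smallest p; list genes called only in the 17 libraries, genes outside all lists that part MS_EC12 from the rest, and the correlation without 1 library were added after values were seen. One marker gene is not reported here by name.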

Additional observations from a re-analysis of the deposited data

How the results depend on the processing

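Xdh kept its direction in MS_EC12 against MS, Control_EC12 and Control in each alternative run. For the alternatives other than leaving out single libraries, 35 log2 fold changes of the main fit were followed, not every gene in every comparison. Further sign changes with the GC corrections are listed below. Of the 341 values compared with those 35, 301 kept direction and side of the threshold, 29 changed sign, 6 gained a call and 5 lost one. The cause was not tested. Calls were counted only where the choice of genes had not used the value, so none were counted in MS_EC12 against MS and Xdh enters only MS and Control_EC12 against Control. In MS_EC12 against Control 1 of the 9 genes other than Xdh, Gda, was called in the edgeR fit. The count was 0 with no filter, 0 with GC slope as a covariate, 0 in the 17 libraries, 2 with DESeq2 (Gda and Aprt), 2 on log2(TPM + 1) and 2 on log2(TPM + 0.1) (Gda and Hprt), 2 with the GC trend removed (Adk and Hprt, not Gda), and 0 to 3 without single libraries. With the 2 groups alone it was 1, Aprt in place of Gda. The other 4 comparisons counted stayed at 0 in every alternative run. Of 36 same-numbered pairs 13 correlated over 0.1 (range −0.3 to 0.575), including all of replicate 1 (0.122 to 0.36). Of 24 libraries 5 correlated best with their own number. With a replicate block the count in MS_EC12 against Control was 2 (Gda and Aprt). Ada and Xdh had the fewest reads of the 10 genes.

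Among the 35 log2 fold changes followed, those of the other sign in the 17 libraries were Aprt −0.00881 for MS against Control, Aprt −0.024 for Control_EC12 against Control, Pnp 0.0722, Aprt −0.0162, Nt5e 0.273 and Ampd2 −0.0504 for MS_EC12 against Control, Gda 0.0103 and Ampd2 −0.259 for MS_EC12 against Control_EC12, and Ampd2 −0.166 in the interaction. Not counted there, Nt5e changed sign to 0.0374 for MS against Control and to 0.176 for Control_EC12 against Control. For MS_EC12 against Control_EC12 Nt5e changed to 0.0973 and Hprt to 0.0196, and Nt5e changed to 0.0599 in the interaction. Among the 35, those of the other sign with GC slope as a covariate were Pnp 0.0273, Hprt 0.00163 and Nt5e 0.26 for MS_EC12 against Control, Aprt −0.087 and Ampd2 −0.0615 for MS_EC12 against Control_EC12, and Aprt −0.109 and Ampd2 −0.00871 in the interaction. Not counted there, Hprt changed sign to 0.0142 and Nt5e to 0.133 for Control_EC12 against Control. Nt5e also changed to 0.127 for MS_EC12 against Control_EC12 and to 0.15 in the interaction. Among the 35, those of the other sign with the GC trend removed within each library were Pnp 0.0977, Ada −0.00321 and Hprt 0.45 for MS_EC12 against Control (Hprt, edgeR adjusted p = 0.0476, was the only value of the other sign that passed), Aprt −0.00818 and Ampd2 −0.0827 for MS_EC12 against Control_EC12, and Aprt −0.0668 and Ampd2 −0.0475 in the interaction. Not counted there, Hprt changed sign to 0.167 for Control_EC12 against Control. For MS_EC12 against Control_EC12 Adk changed to 0.274 and Hprt to 0.284, and in the interaction Adk changed to 0.157 and Hprt to 0.154. Among the 35, those of the other sign on log2(TPM + 1) were Gda −0.00133 for MS against Control, Adk −0.0683 for MS_EC12 against Control, and Ampd2 −0.0554 for MS_EC12 against Control_EC12. On log2(TPM + 0.1) they were Gda −0.00146 for MS against Control, Adk −0.0694 for MS_EC12 against Control, and Ampd2 −0.0565 for MS_EC12 against Control_EC12.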
